A study of Mus musculus with 4 samples.

Results

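The replication-dependent histone genes of the mouse, those whose symbol begins with Hist1h, Hist2h, Hist3h or Hist4h, were followed through 4 RNA-seq libraries of T-helper 2 cells. The symbol rule took 68 genes of the 50600 in each deposited table: 54 of the Hist1 cluster on chromosome 13, 10 of Hist2 on chromosome 3, 3 of Hist3 on chromosome 11 and 1 of Hist4 on chromosome 6. By type they were 6 linker histone H1 genes, 20 of H2A, 17 of H2B, 12 of H3 and 13 of H4, of which 3 are annotated as pseudogenes. The cells were primary T-helper 2 cells of C57BL/6NJ mice, the CD4 T cell subset known for interleukin-4, in 1 group of biological replicates 1 to 4 with no control and no other cell type. The labels give no sex or age and do not state whether the replicates came from separate mice. All 4 samples have 1 donor record. A p-value therefore reflects the spread of these libraries alone, and that spread may be technical. The headers' paths carry the time 24 hr, absent from the labels. The assay is labelled total RNA-seq, but the protocol linked to it has poly(A) RNA in its name.

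Core histones H2A, H2B, H3 and H4 form the protein core around which DNA is wound, and H1 binds the linker between cores. The clustered genes are transcribed mainly in S phase, have no introns in their coding part, and their mRNAs end in a conserved stem-loop instead of a poly(A) tail. The stem-loop binding protein Slbp and the U7 particle direct that end, and replacement histones such as H2afz and H3f3b, made outside the clusters, carry poly(A) tails and are made through the cell cycle. Activated helper T cells divide, and dividing cells are known for high levels of these mRNAs.

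The stem-loop was looked for by its 16-letter consensus in all GENCODE M21 transcripts, on both strands. It was found in the transcripts of 44 of the 68 members, on the sense strand, and of 17 of the 55382 other genes (0.0307%). On the opposite strand it was found in 0 members and 15 other genes. It was present for 12 of 13 H4, 9 of 12 H3, 4 of 6 H1, 11 of 20 H2A and 8 of 17 H2B genes, and for 1 of 11 replacement histones, H2afx. A gene without a match only lacks these letters in its annotated transcripts. A match was counted anywhere in a transcript, not only at its end. Examples from the sense strand (GRCm38, the mm10 assembly) are shown because the stem-loop sets these mRNAs apart in an assay named for total and poly(A) RNA. The match lay 74 bases from the end of the annotated transcript in Hist1h3c and 28 in Hist1h4b. In Hist1h1e and H2afx it lay 1153 and 822 bases from that end, so there it is internal to that M21 transcript. The counted exons of Hist1h1e, from the older annotation, end at chr13:23621755, close beyond its stem-loop. Capitals mark the stem-loop, which lies at chr13:23745047-23745062 (minus strand) in Hist1h3c, chr13:23621782-23621797 (minus) in Hist1h1e, chr13:23757366-23757381 (plus) in Hist1h4b and chr9:44335240-44335255 (plus) in H2afx.

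Hist1h3c: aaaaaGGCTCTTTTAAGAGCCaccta
Hist1h1e: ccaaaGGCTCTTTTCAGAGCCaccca
Hist1h4b: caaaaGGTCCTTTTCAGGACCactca
H2afx: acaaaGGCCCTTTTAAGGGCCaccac

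The genes on the other strand were the second set of sequences that mattered. Every one of the 20 H2A members had an annotated gene on the opposite strand covering 50 or more of its exon bases, and so did 1 H2B (Hist2h2bb), 1 H3 (Hist2h3b), 1 H4 (Hist1h4b) and 0 H1 members, which gave 25 pairs with 24 features. Of these features 19 were short, 129 to 144 bases long, classed as miRNA genes in GENCODE M21 and placed opposite H2A coding sequence. The other 5 were longer antisense genes: 4930558J22Rik, Gm20628, Gm15444, Gm20632 and Gm20633. The annotation class says nothing of whether a small RNA is made. Of the 19 short features, 8 had one and the same 138-base sequence: Gm44367, Gm44394, Gm44486, Gm44484, Gm44350, Gm44359, Gm19658 and Gm44466. It is shown for Gm44367 (chr13:21716667-21716804, minus strand, opposite Hist1h2ai), with Gm44454 (chr13:21753445-21753582, plus, opposite Hist1h2ak), which had the highest mean count of the short features, and Gm44341 (chr13:51202698-51202835, plus, opposite Hist1h2al), which was identical to Gm47311 and Gm47313. Sequences are those of GENCODE M21 on the feature's own strand in GRCm38, and capitals mark bases that differ from Gm44367, 1 in Gm44454 and 7 in Gm44341.

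Gm44367: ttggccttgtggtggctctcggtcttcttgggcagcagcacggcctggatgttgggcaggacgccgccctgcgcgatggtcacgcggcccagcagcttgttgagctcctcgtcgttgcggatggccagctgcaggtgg
Gm44454: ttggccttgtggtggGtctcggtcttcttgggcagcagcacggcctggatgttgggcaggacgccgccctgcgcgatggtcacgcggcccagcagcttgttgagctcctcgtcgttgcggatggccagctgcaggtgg
Gm44341: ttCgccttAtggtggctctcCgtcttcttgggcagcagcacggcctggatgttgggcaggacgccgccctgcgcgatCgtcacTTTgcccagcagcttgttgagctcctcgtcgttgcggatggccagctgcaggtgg

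A second window of the same coding sequence, 141 bases long, lay opposite 3 cluster genes and opposite the replacement genes H2afx and H2afj. It is shown because it lets cluster and replacement genes be compared over one length. The features shown are Gm44346 (chr13:21786875-21787015, plus, opposite Hist1h2an), Gm44492 (chr3:96220501-96220641, plus, opposite Hist2h2ac), Gm44335 (chr9:44334965-44335105, minus, opposite H2afx) and Gm44364 (chr6:136808543-136808683, minus, opposite H2afj). Gm44297, opposite Hist1h2af, differs from Gm44346 by 1 base and is not shown. Capitals mark bases that differ from Gm44346, 6 in Gm44492, 1 in Gm44335 and 7 in Gm44364.

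Gm44346: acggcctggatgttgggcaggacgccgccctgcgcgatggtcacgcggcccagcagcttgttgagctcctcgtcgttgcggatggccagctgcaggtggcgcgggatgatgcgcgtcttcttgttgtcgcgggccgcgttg
Gm44492: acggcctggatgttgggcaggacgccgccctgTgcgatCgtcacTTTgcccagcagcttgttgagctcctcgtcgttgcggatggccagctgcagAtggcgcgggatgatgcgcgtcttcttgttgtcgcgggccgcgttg
Gm44335: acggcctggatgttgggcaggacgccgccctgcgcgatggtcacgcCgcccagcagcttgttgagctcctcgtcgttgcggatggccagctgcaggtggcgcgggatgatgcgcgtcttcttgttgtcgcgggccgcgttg
Gm44364: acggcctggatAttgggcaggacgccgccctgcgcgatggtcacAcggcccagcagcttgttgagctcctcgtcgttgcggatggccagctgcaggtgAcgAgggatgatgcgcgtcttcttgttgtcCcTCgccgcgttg

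The libraries held 1804217, 1846441, 2711948 and 2169955 counts in replicates 1 to 4. CT010467.1, a ribosomal RNA gene, took 1.02% and 1.14% of the counts of replicates 1 and 2, 28.6% of replicate 3 and 14.4% of replicate 4. Tsix, opposite Xist, had 4004 and 3437 counts in replicates 1 and 2 and 7 and 2 in replicates 3 and 4, so by Tsix the libraries fell into 2 pairs. Replicates 3 and 4 were less alike than replicates 1 and 2. The chi-square per degree of freedom was 30.9 between replicates 3 and 4 and 2.23 between replicates 1 and 2. All 7 T cell markers were called above 1 TPM (count per exon base, scaled to one total in each library), with Cd4 at 56, 67, 71 and 20 counts. Of 5 Th2 markers Gata3, Il4 and Il4ra were above, Il5 was below and Il13, with 1 count, was not called. Among markers of other cells, Cd8a, Ms4a1, Lyz2, Itgax, Ncr1 and Hbb-bs had 0 counts, Cd8b1 had 3 to 4, Cd79a 9 to 15 and Csf1r 983 to 1026. By the same test Cd79a and Csf1r were above 1 TPM and Cd8b1 was not called. The test therefore did not set the T cell markers apart from all others. Csf1r, a myeloid receptor gene, shares 871 exon bases with Hmgxb3 on the other strand, which had 3 to 8 counts. Counts were made for 1 strand (setting 1, per the file headers). The gene on the other strand often held more: Cd3e, a T cell receptor subunit, had 4 to 17 counts and Gm48719 opposite it 2549 to 2857. A count is therefore given as that of a gene on the selected strand and is not read as its expression. Whether the setting fits the strand that the library kit keeps was not tested. These are bulk cells, so fewer cells making a transcript and less of it per cell cannot be told apart.

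Few fragments were counted for the cluster histone genes. The 68 genes together had 18, 24, 42 and 20 counts in replicates 1 to 4, which is 11.9 ± 2.89 CPM (counts scaled to the library total; SD, n = 4). Of the 68 genes, 33 had 0 counts in each library, 11 had 1 count in all, and the highest count of any gene in any library was 5. A gene at 0 could have had up to 3 counts, or 1.11 to 1.66 CPM. Of the members 51.5% had a count in at least 1 library, against 34.0% of all genes and 56.7% of protein-coding genes, while 4.41% had one in each library, against 19.8% of all genes. Among protein-coding genes of 300 to 1000 exon bases, 56.4% of the 55 members had any count, against 21.9% of 1912 others. The members were short, with a median of 478.5 exon bases against 1303.5 for all genes, and a gene of 400 bases at 1 TPM would give only 0.493 to 0.664 counts.

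**Figure D1:**
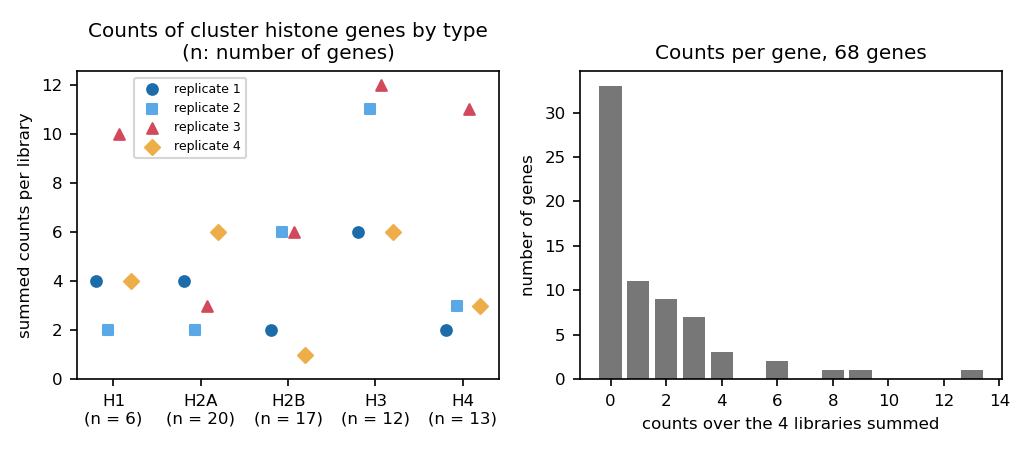
Counts of the cluster histone genes. Left, the summed counts of each histone type in each library (points, one mark per replicate); right, the number of genes at each count summed over the 4 libraries, with 33 of 68 genes at 0.

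No member reached the mean count of 10 set for describing single genes, so the 3 genes with a count in every library are named after their values were seen. Hist1h3c, an H3 gene (chr13:23745013-23745501), had 2, 5, 4 and 2 counts, a mean of 3.25 ± 1.5. Hist1h1e, a linker histone gene (chr13:23621755-23622502), had 1, 2, 4 and 2 counts. Hist1h2bj, an H2B gene (chr13:22043214-22043676), had 1, 3, 3 and 1. None of the 3 shares exon bases with an annotated gene on the other strand, and all 3 carry the stem-loop. After them came Hist1h1c and Hist2h3b, each with 0, 0, 4 and 2 counts.

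Each gene's level was tested against 1 TPM with edgeR's quasi-likelihood test over the 17203 genes with a count. Of these, 37.3% were called above and 22.0% below at an adjusted p under 0.05. Of the 35 members tested, 1 was above and 2 were below, and 1 and 3 at an unadjusted p under 0.05. Hist1h3c was above, at 2.25 on the fitted log2 scale over 1 TPM (adjusted p = 0.00249), and was not called when replicate 2 was left out. Hist1h2be, an H2B gene of 4374 exon bases with 1 count in all, was below (adjusted p = 0.000162), as was Hist4h4, an H4 gene of 2863 exon bases with 1 count (adjusted p = 0.00168). Both genes below are far longer than the median member, and with DESeq2's Wald test 0 members were below. The other 32 tested members were not called, and at these lengths and depths a call could rest on a handful of counts.

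Histone H3 genes had the most counts among the types, 35 in all, of which 13 lay in Hist1h3c. The ranges of the types over the libraries overlapped, that of H3 included. H3 genes had 6, 11, 12 and 6 counts, H1 genes 4, 2, 10 and 4, H4 genes 2, 3, 11 and 3, H2A genes 4, 2, 3 and 6 and H2B genes 2, 6, 6 and 1. As a share of the members' counts H3 held 34.4% ± 7.86 (SD, n = 4), from 16.3% of their exon bases, and its counts were the highest or tied highest of the types in each library. H1 held 18.6% ± 7.01 from 9.97% of the exon bases, H2A 16.9% ± 11.1, H4 16.2% ± 6.85 and H2B 13.8% ± 8.37 from 34.4% of the exon bases. No test was made between types, which are scores over the members. A count was found for 5 of 6 H1, 8 of 12 H3, 8 of 13 H4, 7 of 17 H2B and 7 of 20 H2A genes.

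The copies of these genes also differ in how far a fragment can be placed. For each gene, windows of 100 bases of its longest M21 transcript were searched for in all transcripts of genes elsewhere. The median share of windows found nowhere else was 99.6% for H1, 81.0% for H4, 65.3% for H2B, 60.0% for H3 and 35.5% for H2A. The command in the headers has no setting that counts fragments with several placements, and 5 members overlap another gene on their own strand, whose shared fragments go to neither. The 36 members with at least 50% of 50-base windows unique had 67 counts in all, 21 of them with a count, and the other 32 had 37 counts, 14 of them with a count. The part of uncounted fragments in the members' low counts was not tested.

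By cluster, Hist1 had 18, 23, 35 and 12 counts, Hist2 had 0, 1, 7 and 7, Hist3 had 0 and Hist4 had 0, 0, 0 and 1. Per exon base Hist1 exceeded Hist2 by 1.21 ± 1.96 on the log2 scale (SD, n = 4), a difference smaller than its spread. Over members that share no base with the other strand it was 2.58 ± 0.77. Of these, the Hist2 members had counts only in Hist2h4, with 2 in replicate 3. In the other libraries the 0.5 added to each count and the exon lengths set their level. The value therefore depends on which members are kept, and its small spread is no measure of a difference between clusters. With all members it lay between 0.49 and 1.98 with 1 replicate left out, the lowest without replicate 1. Of the 15 Hist2 counts 14 lay in replicates 3 and 4, the libraries with 28.6% and 14.4% of counts in CT010467.1, whose part in this was not tested. Of the 20 H2A members, 13 lie head to head with an H2B member on the other strand, with starts 173 to 306 bases apart (median 274). One such pair, Hist1h2ag and Hist1h2bj, had 0, 1, 2 and 0 counts in the H2A gene and 1, 3, 3 and 1 in the H2B gene. Members with the stem-loop had 13, 22, 34 and 14 counts over 44 genes, and those without had 5, 2, 8 and 6 over 24 genes. The 2 groups also differ in how far a fragment can be placed. The median share of 50-base windows found nowhere else was 54.4% with the stem-loop and 24.4% without.

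The features opposite the members held many more counts than the members. All 24 together had 548, 604, 1243 and 1294 counts, or 421 ± 135 CPM (SD, n = 4), against 4, 2, 9 and 9 counts in their 23 member genes, a log2 ratio of 7.24 ± 0.46 that was above 0 in 4 of 4 libraries. The 19 short features gave 296, 349, 645 and 831 of these counts and the 5 long ones 252, 255, 598 and 463. Of the 24 features, 11 had more than 3 counts in each library and 5 had 0 in all. Among the latter, Gm47311 and Gm47313 lie wholly within Gm20632 and Gm20633 on the same strand. Fragments over the shared bases go to neither gene. The 0 of Gm47311 and Gm47313 was therefore fixed by the counting, and Gm20632 and Gm20633 lose those fragments too. The remaining 45 members, which share no base with the other strand, had 14, 22, 33 and 11 counts. The level test put 15 of the 19 features it could test above 1 TPM and 2, Gm20632 and Gm20633, below, where the background was 37.3% and 22.0%. Of those above, 12 were short features, and a fragment that reaches beyond a feature of this length raises its value per base.

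4930558J22Rik, an antisense gene at chr13:23756203-23757620 that shares 223 exon bases with the H4 gene Hist1h4b, had the highest mean count. It had 210, 222, 336 and 313 counts, against 0, 0, 2 and 1 in Hist1h4b. Per exon base, with 0.5 added to each count, it exceeded Hist1h4b by 6.60 ± 0.83 on the log2 scale, in 4 of 4 libraries. Gm20628, an antisense gene at chr3:96267075-96270289 that spans the H3 gene Hist2h3b and the H2B gene Hist2h2bb, had 39, 26, 253 and 146 counts, against 0, 0, 4 and 2 in Hist2h3b and 0 in Hist2h2bb. Its log2 difference from Hist2h3b per exon base was 3.21 ± 0.26. Its counts in replicates 3 and 4 did not overlap those in replicates 1 and 2. The same held for 4930558J22Rik and for most short features with more than 3 counts in each library. These are raw counts, and the totals of replicates 3 and 4 were larger. Gm15444, opposite the H2A gene Hist2h2ab, had 2, 6, 8 and 2 counts, and Gm20632 and Gm20633, opposite the near-identical Hist2h2aa2 and Hist2h2aa1, had 2 and 3 counts in all.

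Among the short features, Gm44454 had 82, 75, 195 and 173 counts, and Hist1h2ak opposite it 1, 0, 0 and 1. Gm44394 had 53, 72, 74 and 170, Gm44367 had 36, 68, 75 and 122 and Gm44486 had 42, 43, 42 and 97. The H2A genes opposite Gm44394 and Gm44367, Hist1h2ae and Hist1h2ai, had 0 counts in each library, so that over the 4 libraries summed Gm44394 was at least 123-fold and Gm44367 at least 100-fold higher in counts, with the gene put at 3 counts. Gm44313, opposite Hist3h2a and also opposite Trim17, had 29, 33, 67 and 57 counts, and Gm44492, opposite Hist2h2ac, had 16, 13, 71 and 54. Gm44484, Gm44346, Gm44350 and Gm44297 had means of 29.0, 19.2, 18.2 and 15.2 counts. Gm44390, Gm44359, Gm44341 and Gm44357 had 4 to 14 counts in all, and Gm19658, Gm44344 and Gm44466 had 0. Gm47311 and Gm47313 had 0 as well, where the counting allowed no other value.

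**Figure D2:**
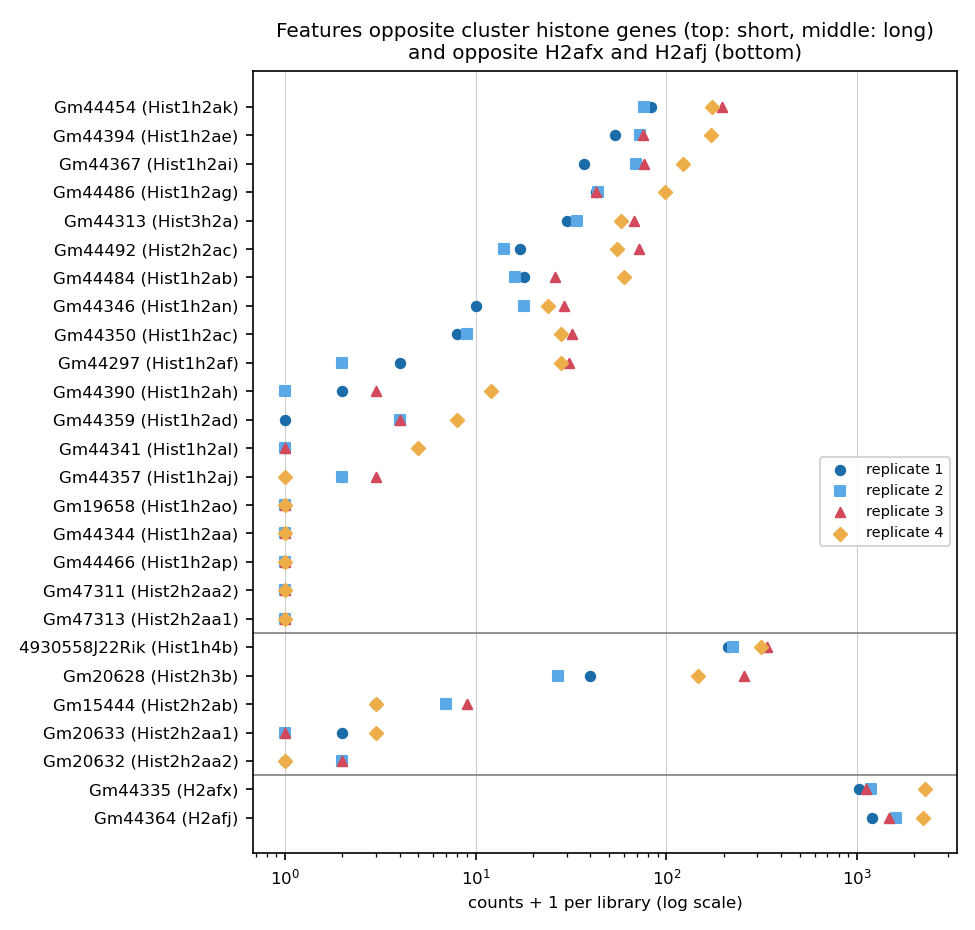
Counts + 1 (log axis) of each feature opposite a cluster histone gene, with that gene in brackets, in replicates 1 to 4 (one mark each): 19 short features at the top, 5 long in the middle, and the features opposite H2afx and H2afj at the bottom. Counts run from 0 to 336 in the cluster features and lie above 1000 for H2afx and H2afj.

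Each feature was also set against its gene within a library by an exact two-sided sign-flip permutation test, whose smallest p with 4 libraries is 1 in 8. Of the 25 pairs, 4 had no count and 21 were tested, per exon base with 0.5 added to each count. The feature was higher in 4 of 4 libraries in 18 pairs, each at that smallest exact p (0.138 with Benjamini-Hochberg adjustment over 21 pairs), so none could pass 0.05. In the other 3, Gm20632 was lower than Hist2h2aa2 in 4 of 4 libraries (log2 difference -2.20 ± 1.29), Gm20633 was lower than Hist2h2aa1 in 3 of 4 (-1.30 ± 1.17) and Gm15444 was higher than Hist2h2ab in 3 of 4 (2.60 ± 2.07). Where both counts are near 0, the added 0.5 and the exon lengths set the direction. Gm47311, whose counts were fixed at 0, is among the 18 pairs in this way. Only 12 pairs had a feature with more than 3 counts in each library, and since the members opposite have few counts, that filter fixes their direction.

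One sequence did not mean one count. The 8 features with the sequence of Gm44367 printed above had between 0 counts in each library (Gm19658 and Gm44466) and 170 in replicate 4 (Gm44394). With fragments of several placements left uncounted, one that lies wholly within that sequence could not be assigned to one copy. In the H2A genes opposite, the share of 100-base windows found in no other gene was 7.35% for Hist1h2ao (opposite Gm19658) and 7.83% for Hist1h2ap (Gm44466), 69.3% for Hist1h2ae (Gm44394) and 92.3% for Hist1h2ac (Gm44350, 18.2 counts on average). It was 11.6% for Hist1h2ai, whose feature Gm44367 averaged 75.2 counts, and 100% for Hist1h2aa, whose feature Gm44344 had 0. Hist1h2aa is known as a testis histone gene. The uniqueness of the gene and the count of its feature did not run in one order. That share was taken over the longest M21 transcript, which can reach far beyond the feature. For Hist1h2ac it covered 2383 windows, though its counted exons span 476 bases. The comparison therefore cannot show whether placement set the counts of the features.

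**Figure D3:**
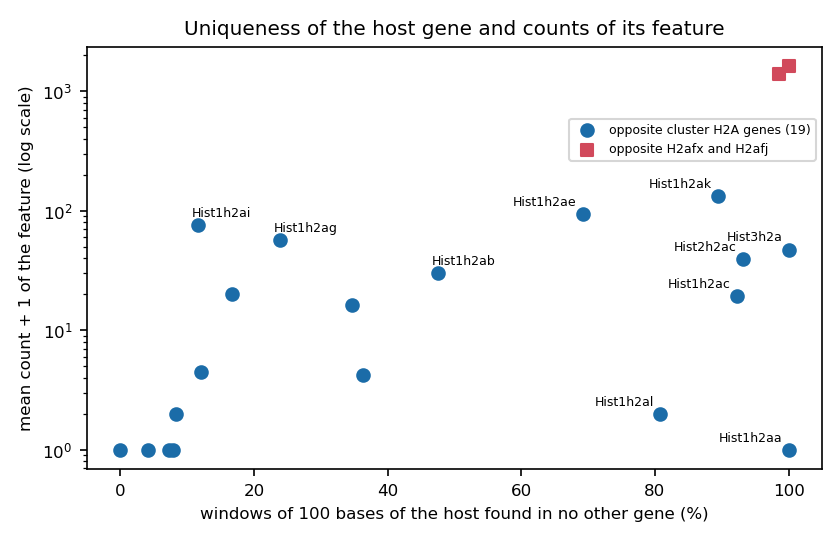
Mean count + 1 over 4 libraries (log axis) of each short feature against the share of 100-base windows of the opposite gene's longest M21 transcript found in no other gene (%). Circles are the 19 features opposite cluster H2A genes, from 0 to 131 counts, and squares those opposite H2afx and H2afj.

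The replacement H2A genes gave a reference for the same kind of feature. Gm44335, opposite H2afx, had 1022, 1187, 1120 and 2273 counts, and Gm44364, opposite H2afj, had 1202, 1598, 1467 and 2224. H2afx, the variant phosphorylated at DNA breaks, had 9, 12, 5 and 10 counts of its own, and H2afj 27, 23, 28 and 28. Per exon base, over lengths of 138 and 141 bases, Gm44454 minus Gm44335 was -3.43 ± 0.64 on the log2 scale (SD, n = 4), and Gm44454 minus Gm44364 was -3.68 ± 0.62, below 0 in 4 of 4 libraries (again the smallest p the exact sign-flip test allows). The 19 short cluster features summed to 13.3%, 12.5%, 24.9% and 18.5% of the counts of the H2afx and H2afj features, or 17.3% ± 5.72. The 7 whose gene had more than 50% of 100-base windows unique came to 10.8% ± 4.33, and the 3 of 141 bases to 2.42% ± 1.79. Of those 7, Gm44394, Gm44350 and Gm44341 have the same sequence as other features. Unique windows of the gene therefore do not make this a subset without copies.

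That share moved with the libraries. It was above 18% in replicates 3 and 4 and below 14% in replicates 1 and 2, and the long features, at 11.3%, 9.16%, 23.1% and 10.3% of the H2afx and H2afj features, were highest in replicate 3. Of the 11 features with more than 3 counts in each library, set against the H2afx and H2afj features, 8 were highest in replicate 3, 3 in replicate 4 and 0 in replicates 1 and 2. CT010467.1 took its largest share of counts in replicate 3, and its part in the result was not tested. With CT010467.1 left out of the totals the 24 features averaged 494 ± 204 CPM.

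**Figure D4:**
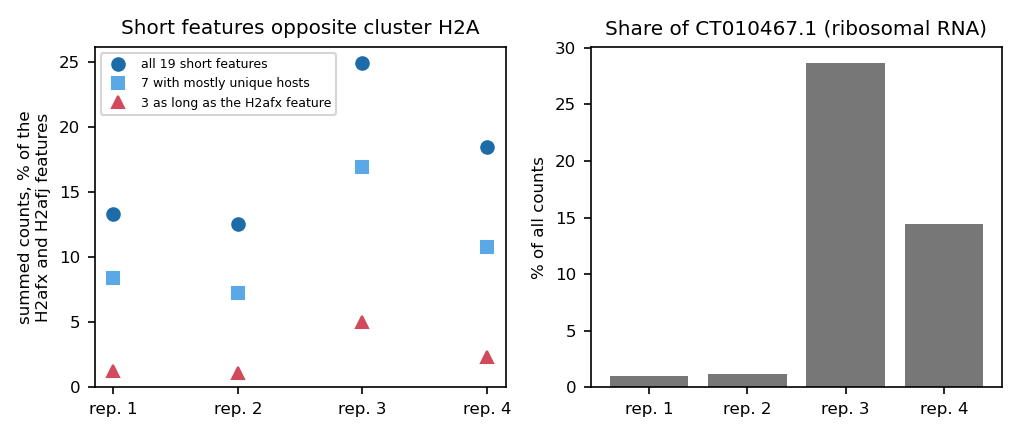
Left, summed counts of the short features opposite cluster H2A genes as a percentage of those opposite H2afx and H2afj, per replicate, for all 19 features (12.5% to 24.9%), the 7 with mostly unique genes and the 3 of 141 bases. Right, the share of all counts in CT010467.1 (%), highest in replicate 3.

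The genes that surround the histone cycle were read from the same test on 4 lists. Of 43 genes, 26 were called above 1 TPM and 1 below, against 37.3% and 22.0% of all tested genes. Against 5 TPM the lists had 12 above and 23 below, where all tested genes had 20.4% above and 63.1% below. Of 12 genes of 3-prime end processing and turnover, 7 were above. Cpsf2, a subunit of the cleavage complex, had 197, 168, 202 and 237 counts, or 27.0 ± 3.61 TPM (SD, n = 4), and Srrt, which couples capped RNA to processing, had 14.5 ± 7.08 TPM. Slbp had 30, 29, 30 and 9 counts, against 1559 to 3173 in Gm10459 on the other strand. Lsm10 and Lsm11, the proteins particular to the U7 particle, had 2 and 15 counts in all and were not called.

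Of 10 genes of histone gene transcription, 5 were above and Hinfp, the activator of H4 genes, was below, with 9 counts in all. Npat, the coactivator of the clusters that cyclin E and Cdk2 phosphorylate, had 6, 8, 8 and 3 counts and was not called. The highest, Ccne2 (cyclin E2) with 490 to 494 counts and Pou2f1 with 289 to 350, share 609 exon bases with Ints8 and 3007 with Cd247 on the other strand, which had 704 to 868 and 1073 to 1310 counts. Ccne1, which shares none, had 6, 17, 13 and 4 counts.

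Of 10 chaperone genes, 7 were above. Chaf1a, of the complex that deposits H3 and H4 behind the fork, had 64, 72, 125 and 75 counts, or 17.7 ± 3.46 TPM, and shares 620 bases with Ubxn6, which had 2527 to 2656. Dnajc9, an H3 and H4 chaperone that shares none, had 25, 48, 35 and 7 counts, and Nasp, which holds soluble H3 and H4, had 74, 91, 86 and 23. Replicate 4 had the lowest count of 7 of the 10, Dnajc9, Nasp, Rbbp4, Rbbp7, Hat1, Asf1b and Chaf1b, while Asf1a was highest there, with 41, 49, 47 and 76, and Chaf1a was not lowest. Asf1a shares 1748 exon bases with Mcm9 on the other strand, which had 1348, 1278, 1457 and 1615 counts, also highest in replicate 4. Rbbp4 and Rbbp7 share exon bases with the other strand as well. A lowest count in replicate 4 was not particular to the chaperones. Every T cell marker was also lowest there, while Cpsf2 of the processing list was highest there. Actb, the cytoplasmic actin gene and no member of these lists, had 48 counts in replicate 4 and 276 to 324 in the others. The share of all genes lowest in replicate 4 was not computed.

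Of 11 replacement histone genes, 7 were above 1 TPM. H3f3b, an H3.3 gene, had 52, 53, 76 and 20 counts, or 12.1 ± 5.06 TPM, and H2afy, macroH2A, had 96, 84, 94 and 49. H2afz, encoding H2A.Z, had 18, 33, 16 and 3 counts. H3f3a, the other H3.3 gene, had 7, 4, 10 and 1 counts, against 2060 to 2815 in Gm17275 opposite it, and H1fx had 0, 0, 0 and 3, against 2111 to 2683 in Gm5577. For comparison all 12 cluster H3 genes together had 6, 11, 12 and 6 counts. The 68 cluster genes therefore had fewer counts than H3f3b alone in replicates 1 to 3, and as many as it, 20, in replicate 4.

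**Figure D5:**
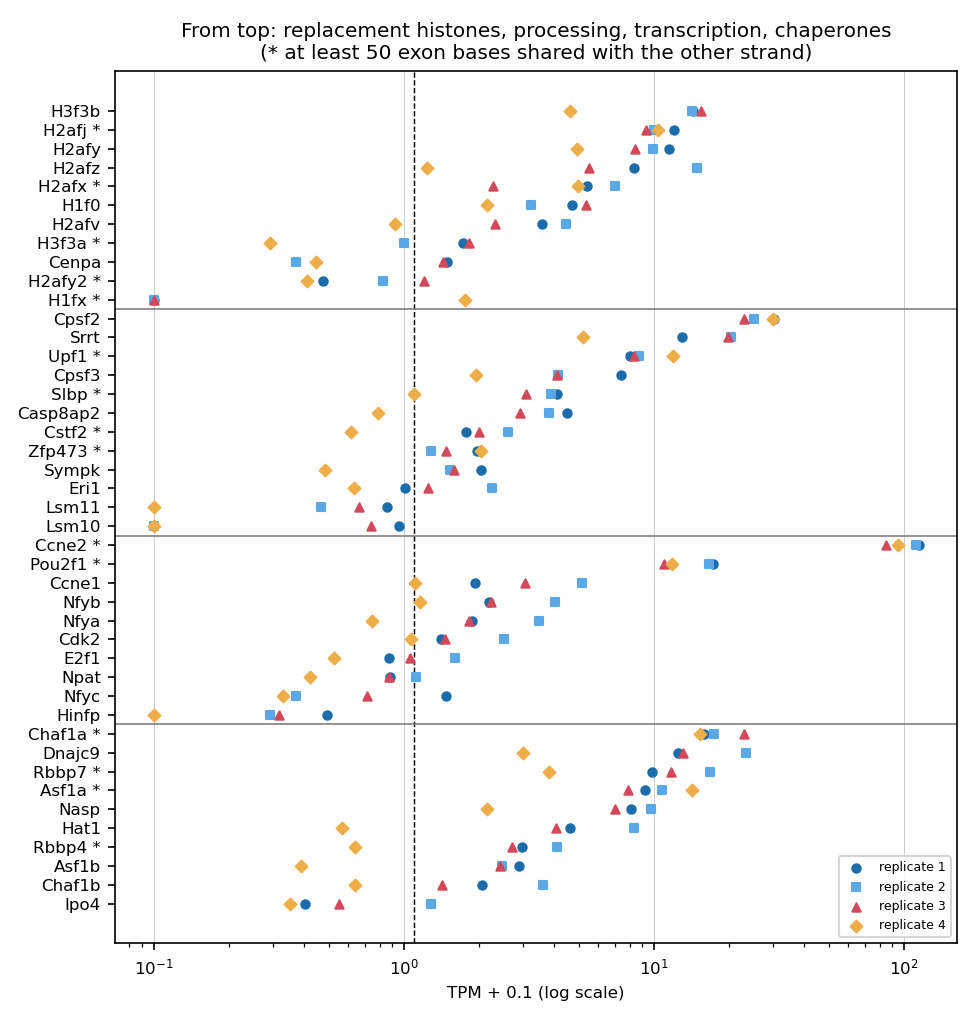
TPM + 0.1 (log axis) of the genes of 4 lists in replicates 1 to 4 (one mark each), from the top: replacement histones, 3-prime end processing, transcription and chaperones. The dashed line marks 1 TPM, stars mark genes that share at least 50 exon bases with the other strand, and replicate 4 is often lowest among the genes without a star.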

How the data were processed

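RNA-seq of 4 mouse Th2 libraries was analysed from the deposited gene tables. The values are raw counts, which the authors made with featureCounts 1.4.6-p4 per the file headers: paired fragments with both ends aligned, strand setting 1, exons summed by gene of GENCODE M13, on alignments named star2. The assembly is mm10 per the labels. The aligner's version and the read length are not given in the sources used here.

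Symbols came from GENCODE M21 by gene ID without version (50376 of 50600 matched). TPM is count over exon length, scaled to one total. Exons were merged and bases shared with the other strand summed, with a minimum of 50. Levels were tested against 1 TPM with edgeR 4.0.16 (intercept-only quasi-likelihood fit, log exon length and TPM scale as offset, robust, two-sided), adjusted by Benjamini-Hochberg over all genes with a count, at a threshold of 0.05. The F statistic was formed from the fit, since the tool's own function needs a second model term. Contrasts within a library used log2((count + 0.5) per exon base) and an exact sign-flip permutation test. limma 3.58.1 and DESeq2 1.42.0, other levels, filters and scalings, and each replicate left out were alternatives. Copies and stem-loops were searched in GENCODE M21 transcripts, aligned with Biopython 1.88. Scripts ran in Python 3.11.15, scipy 1.17.1 and R 4.3.3. The geometry and the level test were tested on simulated data.

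The rule for named genes took members averaging 10 counts or more, every opposite feature, and up to 5 genes of each list by TPM. Members outside it were named after their values were seen, as were list genes beyond the highest 5. The members and lists were chosen with earlier results of these data known. Library totals ran from 1804217 to 2711948. A count of 0 allows up to 3 counts, 1.11 to 1.66 CPM, for counting error only. Pairs of libraries differed by a chi-square per degree of freedom of 2.23 to 69.5, so none was deposited more than once.

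1 marker of other cells is not reported here.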

Additional observations from a re-analysis of the deposited data

Results flagged for a closer look

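Of 52 genes, features, sums and shares taken for this check in the group of 4 libraries, 4 had a library far from the others. In each case it was replicate 4. The 52 include the 5 features at 0 in each library, which could not be tested. Chance marks about 1 in 20 groups. Gm44484, opposite Hist1h2ab, had 27.2 CPM in replicate 4, against 8.12 to 9.42 CPM in the others. Gm44390, opposite Hist1h2ah, had 5.07 CPM, against 0 to 0.738. Gm44341, opposite Hist1h2al, had 1.84 CPM, on 4 counts, against 0. H3f3b, the replacement H3.3 gene, had 9.22 CPM, against 28.0 to 28.8. Replicate 4 also had 14.4% of its counts in CT010467.1, whose part in these values was not tested.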

How the results depend on the processing

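No paired analysis was possible because all libraries belong to 1 group. Of 96 alternatives over 15 results, 80 stayed near the reported value, 16 moved and 0 reversed. For a mean, near meant a shift of under 1 SD. Leaving out 1 of 4 libraries cannot shift a mean that far, so those alternatives could only stay near. The count of pairs could not change with a replicate left out either, and a minimum of 1 shared base kept the same members. The tally of 80 therefore says little about stability. Members called above 1 TPM (1) numbered 2 with limma at each pseudocount (0.1, 0.5 and 1) and 0 at a level of 5 TPM, and lay between 0 and 1 with 1 replicate left out, with 0 without replicate 2. Members called below (2) numbered 12, 8 and 6 with limma at pseudocounts of 0.1, 0.5 and 1, 0 with DESeq2 and 28 at 5 TPM, and lay between 1 and 2 with 1 replicate left out. The cause was not tested. H1 held 26.1% of the counts when only members with no shared base were kept, against 18.6%, since that leaves all H1 genes but no H2A gene. The share of the short features relative to those of H2afx and H2afj, 17.3%, was 10.8% over features whose genes had mostly unique windows. Some of those features still have identical copies. It was 2.42% over the 141-base features. Both subsets hold fewer features and were chosen after seeing the data. Over members with no shared base the Hist1 minus Hist2 difference was 2.58, against 1.21, where the Hist2 members had counts in replicate 3 alone. Of the 43 list genes, 12 were called above 5 TPM and 23 below, against 26 above and 1 below 1 TPM, an alternative also chosen after seeing the data. With at least 200 shared bases the members' share of counts with an opposite feature was 13.4%, against 24.2%. With a mean count of at least 10 no member was left to test, and the deviation of replicate 4 over members, the type shares and the difference between clusters were not run with that filter. Depth limited single members: 1 TPM of a 400-base gene is under 1 count.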
